A study of Mus musculus with 12 samples.

Results

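Fetal XY gonads of mice that lack both Amh and Inhbb (dKO XY) were set against XX gonads of control mice (control XX) at embryonic day 12.5 (E12.5), with 4 arrays in each group, 8 of the 12 arrays of the series. The other 4 arrays, of XY gonads of control mice (control XY), were in the same fit and give the testis level. Every transcript cluster (the probe sets of 1 locus) on chromosomes 1 to 19 was compared, 61635 of the 65956 clusters on the array, which leaves out the chromosomes on which XY and XX gonads differ by genotype. A single gene symbol is attached to 28444 of these clusters, several to 1861 and none to 31330. Each of 28148 symbols was described by its brightest cluster, judged by the mean of all 12 arrays. The dKO XY embryos, labelled as null for Amh and Inhbb, were bred from mice of a line heterozygous for Amh and a line heterozygous for Inhbb, and the null alleles are present in every cell of the embryo. Embryos of both control groups were labelled as carrying Amh and Inhbb intact, and all mice were on a C57BL/6 background. Gonads were freed of the mesonephros and frozen, and their RNA was amplified before it was hybridised to Affymetrix Clariom D mouse arrays. The labels do not give the animal, the number of gonads in a sample, or a batch, so the p-values rest on the variation among samples alone. The stage is that of the sample labels, while the study's data statement names another stage for this series. All levels are log2 intensities, on which a difference of 1 is a 2-fold change, and levels of different genes were not set against each other.

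The gonad begins as a common primordium in both sexes. In XY embryos Sry, acting through Sox9, directs the supporting cells to become Sertoli cells, which enclose the germ cells in cords and secrete AMH, activin B and other signals to Leydig and interstitial cells. In XX embryos signals of the WNT pathway direct the same cells to become pre-granulosa cells, and the germ cells enter meiosis. AMH, a hormone of the TGF-β family, makes the Müllerian ducts of males regress, and Inhbb encodes the βB subunit that forms activin B, another ligand of this family.

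The sex labels and the targeted genes were checked first. Xist, which is transcribed from the inactive X chromosome, lay at 7.31 to 8.40 in dKO XY, 15.9 to 16.4 in control XX and 7.15 to 8.32 in control XY arrays, and the Y-linked gene Kdm5d at 8.13 to 9.26 in dKO XY, 6.38 to 6.81 in control XX and 8.90 to 9.65 in control XY. Amh was at 5.79, 5.59, 5.90 and 5.71 in dKO XY, against 5.52, 5.45, 5.31 and 5.14 in control XX and 11.33, 11.40, 13.38 and 10.56 in control XY. The dKO XY minus control XX difference was 0.39 (95% confidence interval −0.54 to 1.32) and the dKO XY minus control XY difference was −5.92 (adjusted p = 0.000372). In dKO XY and control XX arrays Amh lay below the average signal of negative control probe sets, which was 6.54 to 6.95 over the 12 arrays and is taken here as background. Inhbb averaged 6.87 ± 0.13 in dKO XY, 6.72 ± 0.19 in control XX and 7.47 ± 0.39 in control XY arrays (SD, n = 4), with a dKO XY minus control XX difference of 0.15 (interval −0.23 to 0.54) and a dKO XY minus control XY difference of −0.59 (adjusted p = 0.0350). Whether the Inhbb probes lie inside the deleted part is not known, so its level does not check the genotype.

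Signal contrast, by which positive control probe sets exceeded negative ones on average, was 3.11 ± 0.585 in dKO XY arrays and 3.41 ± 0.228 in those of control XX (SD, n = 4; two-sided exact permutation test over 70 arrangements, p = 0.371), and 4.07 ± 0.317 in control XY arrays (dKO XY against control XY, p = 0.0571). It was lowest in dKO XY arrays 1 and 3, at 2.83 and 2.48. One control XX array stood apart. In control XX array 1, Chgb, which encodes the secretory protein chromogranin B of neuroendocrine cells, was at 12.78, against 5.33 to 5.65 in dKO XY, 4.95 to 5.67 in the other 3 control XX arrays and 5.01 to 5.41 in control XY. Th and Dbh, enzymes of catecholamine synthesis, were at 8.46 and 8.51 in that array, against at most 6.97 and 6.06 in the other 11. The 7 neural crest and adrenergic genes measured averaged 6.30 to 6.51 in dKO XY arrays and 8.19 in control XX array 1, against 5.97 to 6.35 in the other control XX and 6.04 to 6.30 in control XY arrays. Counts without this array are given with the results.

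Across the autosomes, 126 clusters differed between dKO XY and control XX gonads (limma, adjusted p under 0.05), 53 of them higher in dKO XY (0.086% of those tested) and 73 lower (0.118%). Of these, 95 differed at least 2-fold (0.154%). At an unadjusted p under 0.05 the count was 6170. Without control XX array 1, 33 clusters were higher and 80 lower, and without control XX array 2, 13 were higher and 15 lower. Among the annotated genes called, 20 of 85 kept an adjusted p under 0.05 in all 12 fits without 1 array, and each of the other 65 lost it without control XX array 2 and in some cases without further arrays. Among symbols, 42 were higher (0.149%) and 46 lower (0.163%), and 40 and 45 of them are annotated genes other than predicted genes, clones and small RNAs. All 4 dKO XY arrays lay above all 4 control XX arrays for 1.87% of the clusters, and below them for 2.17%. The median difference over all autosomal clusters was 0.05. For 55743 clusters (90.4%) the 95% confidence interval of the difference lay wholly between −1 and 1, which is called here the control XX level. The median level of all clusters, 6.02 to 6.52 over the 12 arrays, lay below background on each array. Among the 5144 autosomal clusters left by a filter on dim clusters, 2666 were at the control XX level. Shares of all clusters or symbols at this level therefore include many dim ones and are no baseline for expressed genes. In the other comparisons, which share arrays with this one and with each other, 16342 clusters (26.5%) differed between dKO XY and control XY, 10184 higher (16.5%) and 6158 lower (9.99%), and 1194 (1.94%) differed between control XX and control XY, 368 higher (0.597%) and 826 lower (1.34%). The size and the direction of the dKO XY minus control XY count depended on single arrays and on scaling. It was 73 without dKO XY array 1, 186 without dKO XY array 3 and 105 without control XY array 3, 4 without dKO XY arrays 1 and 3 together, and 0 with signal contrast as a covariate, where limma gave 2708 clusters an unadjusted p under 0.05. With quantile-normalised arrays it was 768 higher and 936 lower. Each adjusted p against control XY below is from the fit of all 12 arrays as deposited.

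**Figure D1:**
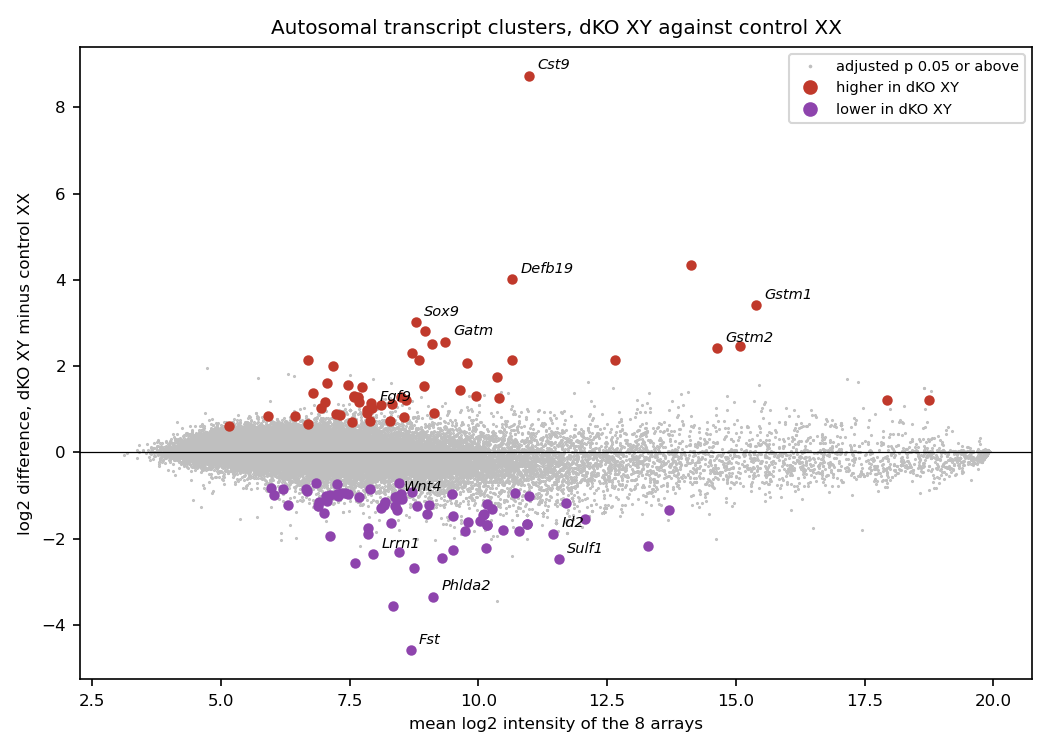
Difference between dKO XY and control XX gonads (log2, vertical axis) against the mean level over the 8 arrays (log2 intensity, horizontal axis) for each of the 61635 autosomal clusters, with clusters of adjusted p under 0.05 coloured and named genes labelled. Cst9 stands highest at 8.73 and Fst lowest at −4.59, and most clusters lie near 0.

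Part of the Sertoli cell genes were higher in dKO XY than in control XX gonads. Of 29 Sertoli cell genes, 9 were higher in dKO XY than in control XX gonads, against 0.149% of all autosomal symbols, and none was lower, and the median difference over the list was 0.55, against 0.04 over all autosomal symbols. The mean of the 29 genes was 8.14 to 8.54 in dKO XY arrays, 7.05 to 7.30 in control XX arrays and 9.01 to 9.55 in control XY arrays, so that the dKO XY arrays lay between the control groups and overlapped neither. Without control XX array 1 the count was 8, and without dKO XY array 4 or without control XX array 2 it was 5. A shortfall from control XY was not confined to the Sertoli list. The mean of 9 housekeeping genes was 12.14 to 12.90 in dKO XY, 12.44 to 12.79 in control XX and 13.01 to 13.17 in control XY arrays. Lists of macrophage and mesonephric genes went the other way, with dKO XY arrays above those of control XY. Macrophage means were near background, at 6.75 to 6.89 in dKO XY and 6.56 to 6.67 in control XY arrays. Mesonephric means were below it, at 6.31 to 6.56 and 6.02 to 6.20. The median of all clusters was also higher in dKO XY, so these lists do not show more RNA of such cells. In bulk tissue, fewer cells of a type and less RNA per cell cannot be told apart. For a shortfall from control XY, neither can be told apart from the lower signal contrast of the dKO XY arrays.

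Sox9, the transcription factor that sets Sertoli cell identity, was at 10.04, 10.85, 9.94 and 10.33 in dKO XY, against 7.67, 6.91, 7.42 and 7.10 in control XX and 10.13, 10.68, 10.55 and 10.04 in control XY. The dKO XY arrays overlapped those of control XY and stood above every control XX array. Sox9 was higher in dKO XY than in control XX by 3.02 ± 0.23 (SE), 8.11-fold (interval 2.53 to 3.51; adjusted p = 0.000152), while the dKO XY minus control XY difference was −0.06 (interval −0.55 to 0.44). Fgf9, a growth factor that sustains Sox9 in the XY gonad, was at 8.39, 8.77, 8.17 and 8.46 in dKO XY, against 7.59, 7.32, 7.35 and 7.39 in control XX and 8.57, 8.98, 8.54 and 8.62 in control XY. Its difference from control XX was 1.04 ± 0.15 (SE), 2.05-fold (adjusted p = 0.0117), and that from control XY −0.23 (interval −0.54 to 0.09). The call for Fgf9 was lost without dKO XY array 4 or control XX array 2, with an adjusted p of up to 0.0618.

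Cst9, which encodes a cystatin-related protein of early Sertoli cells, had the largest fitted difference of all clusters with a symbol. Its level was 14.60, 16.11, 14.62 and 16.03 in dKO XY, against 7.54, 6.42, 5.99 and 6.48 in control XX and 17.0, 17.54, 17.67 and 16.64 in control XY, which left dKO XY 8.73 ± 0.41 (SE) above control XX (adjusted p = 1.05e-06). In 3 of the 4 control XX arrays Cst9 was at or below background, and with background in place of lower values it was at least 341-fold higher in dKO XY. The dKO XY arrays also lay below all 4 control XY arrays, by 1.87 on average (adjusted p = 0.0220). Defb19, a β-defensin made by Sertoli cells, lay near the middle of the range between the control groups, at 11.52, 13.63, 11.59 and 13.90 in dKO XY, against 8.16, 9.62, 8.27 and 8.53 in control XX and 16.63, 16.66, 17.21 and 16.63 in control XY. It was higher in dKO XY than in control XX by 4.02 ± 0.51 (SE), 16.2-fold (adjusted p = 0.00665), and lower than in control XY by 4.12 (adjusted p = 0.00711). No array of 1 group reached the range of another. In the fit of only the 8 dKO XY and control XX arrays the adjusted p for Defb19 was 0.0600.

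Gstm1, a glutathione S-transferase of the mu class, was at 16.64, 17.52, 16.63 and 17.59 in dKO XY, against 13.30, 13.35, 13.63 and 14.46 in control XX and 17.27, 17.77, 18.02 and 17.41 in control XY. The difference from control XX was 3.41 ± 0.30 (SE), 10.6-fold (adjusted p = 0.000467), and the dKO XY arrays overlapped those of control XY. Of the other listed Sertoli cell genes, Aard, an alanine- and arginine-rich protein of fetal Sertoli cells, was higher in dKO XY than in control XX by 1.39 (adjusted p = 0.00665) and differed from control XY by −0.35 (interval −0.73 to 0.04). Cbln4, a secreted protein of the cerebellin family, was higher than in control XX by 1.61 (adjusted p = 0.0141) and lower than in control XY by 1.30 (adjusted p = 0.0191). Tesc, the calcium-binding protein tescalcin, had differences of 1.10 (adjusted p = 0.0199) and −1.23 (adjusted p = 0.00885) in the same order. Gstm6 completes the 9 with 1.55 against control XX (adjusted p = 0.0348). The calls for Cbln4 and Tesc were lost without dKO XY array 4 or control XX array 2, and that for Tesc also without control XX array 4. Their adjusted p reached 0.0822 and 0.0976. Gstm6 passed in only 3 of the 12 fits without 1 array, with an adjusted p of up to 0.146, and Aard passed in all 12.

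**Figure D2:**
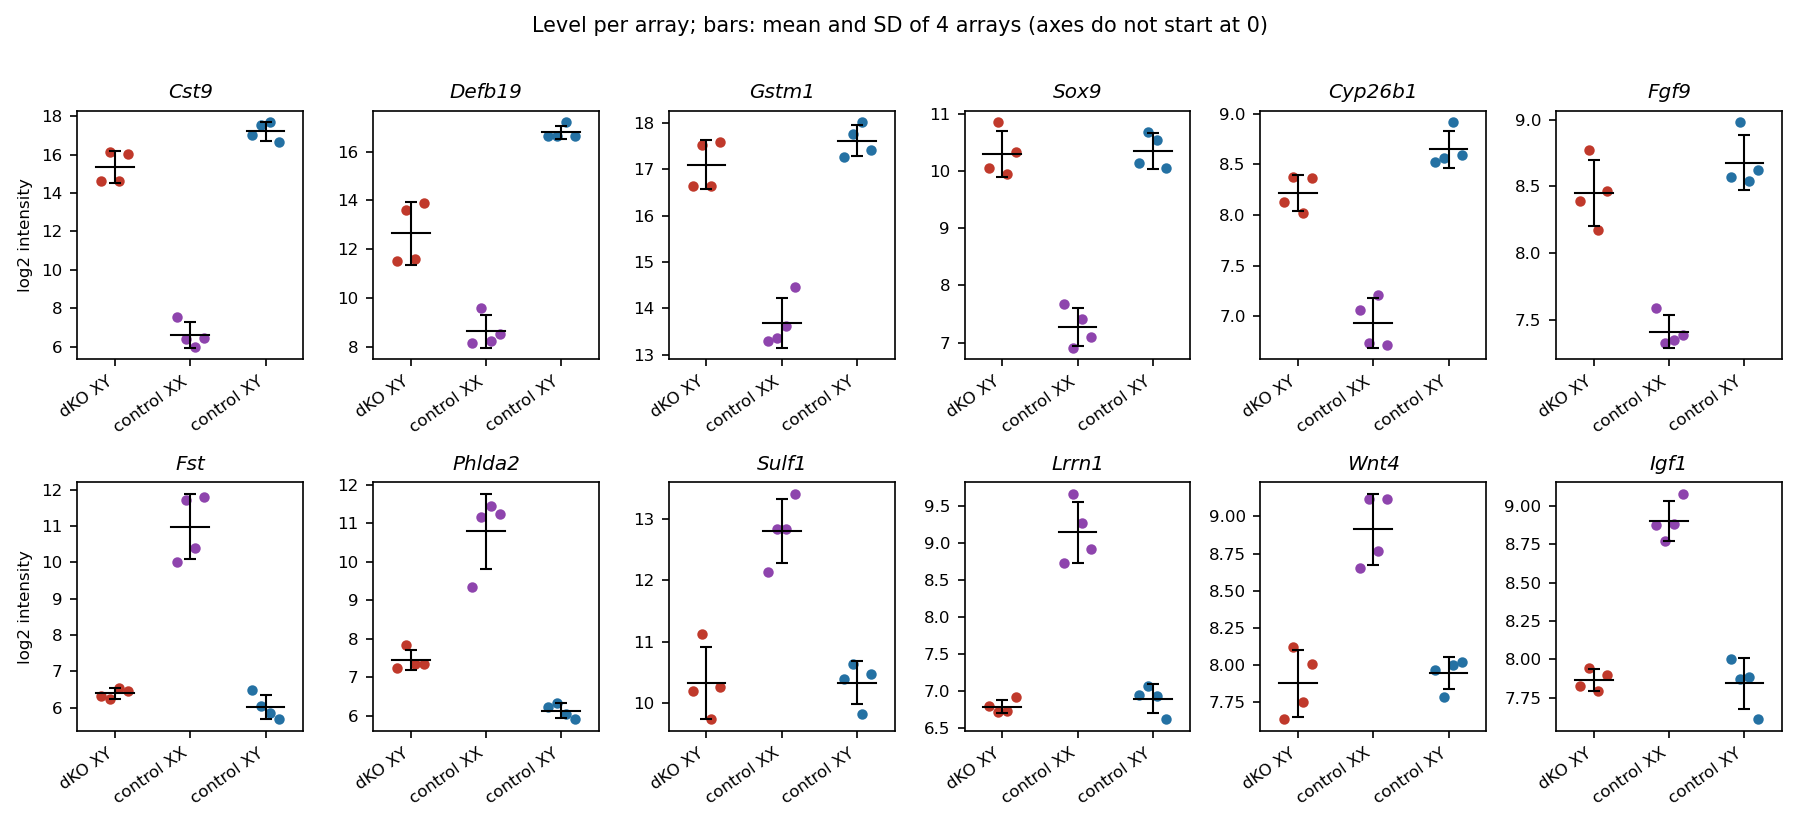
Level of 12 genes (log2 intensity) in each array of dKO XY, control XX and control XY gonads, with the mean and SD of 4 arrays as a line and bar. In the upper row (Cst9, Defb19, Gstm1, Sox9, Cyp26b1, Fgf9) all dKO XY arrays lie above all control XX arrays, and in the lower row (Fst, Phlda2, Sulf1, Lrrn1, Wnt4, Igf1) all lie below them.

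The other 20 Sertoli cell genes did not pass the test. For 15 of the 29, against 91.6% of all autosomal symbols, the interval of the dKO XY minus control XX difference lay within 1 of 0. Such an interval can still exclude 0. The intervals, which are not adjusted for the number of tests, lay wholly above 0 for 20 of the 29 and below 0 for 1. All 4 dKO XY arrays lay above all 4 control XX arrays for 19, against 2.13% of all symbols, and below them for 1. Dmrt1, a transcription factor that maintains Sertoli cells after birth, averaged 6.60 ± 0.15 in dKO XY, 6.42 ± 0.10 in control XX and 6.73 ± 0.22 in control XY arrays (SD, n = 4), with a difference from control XX of 0.17 (interval −0.10 to 0.45). All 4 control XX values of Dmrt1, and 9 of its 12 values, were at or below background, so the interval does not compare Dmrt1 expression. Dhh, the hedgehog ligand that Sertoli cells send to Leydig cells, averaged 6.94 ± 0.21 in dKO XY, 6.26 ± 0.21 in control XX and 7.44 ± 0.45 in control XY arrays (SD, n = 4), and its interval (interval 0.24 to 1.13; adjusted p = 0.311) included both a small and a more than 2-fold difference. Sox8, a relative of Sox9, differed from control XX by 0.60 (interval 0.28 to 0.92; adjusted p = 0.210), with an adjusted p of 0.0444 on quantile-normalised arrays. In control XX, all 4 values of Dhh and 3 of those of Sox8 were at or below background.

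Several genes of the Sertoli list stood far below control XY in dKO XY gonads without passing the test against control XX. Ptgds, the prostaglandin D2 synthase of Sertoli cells, was at 8.79, 9.0, 8.59 and 9.30 in dKO XY, against 7.77, 7.27, 8.15 and 7.43 in control XX and 10.81, 11.51, 12.46 and 11.39 in control XY. Its difference was 1.27 from control XX (interval 0.61 to 1.92; adjusted p = 0.176) and −2.62 from control XY (adjusted p = 0.00635). All dKO XY arrays lay above all control XX arrays and below all control XY arrays. Hsd17b3, which in fetal Sertoli cells converts androstenedione to testosterone, averaged 8.80 ± 0.27 in dKO XY, 7.11 ± 0.17 in control XX and 11.92 ± 0.80 in control XY arrays (SD, n = 4), with 1.70 against control XX (adjusted p = 0.0515) and −3.12 against control XY (adjusted p = 0.00263). Aldh1a1, a retinaldehyde dehydrogenase, averaged 11.14 ± 0.66 in dKO XY, 9.74 ± 0.38 in control XX and 13.73 ± 0.78 in control XY arrays (SD, n = 4), with 1.40 (adjusted p = 0.276) and −2.59 (adjusted p = 0.0130). Cst12, a cystatin gene of the list, went the other way, at 6.61 in dKO XY, 8.79 in control XX and 6.88 in control XY on average, with a difference from control XX of −2.18 (interval −3.14 to −1.22; adjusted p = 0.0955).

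Outside the Sertoli list, Gatm, Akr1b8 and Me1 were among the genes with the largest differences. Gatm, the first enzyme of creatine synthesis, was at 10.02, 11.46, 9.77 and 11.33 in dKO XY, against 7.38, 8.77, 8.13 and 8.02 in control XX and 10.94, 11.72, 12.16 and 11.89 in control XY. It was higher in dKO XY than in control XX by 2.57 ± 0.41 (SE), 5.94-fold (adjusted p = 0.0261), and no dKO XY array overlapped control XX. Akr1b8, an aldo-keto reductase, was higher by 2.14 (adjusted p = 0.0159) and Me1, the cytosolic malic enzyme that yields NADPH, by 1.75 (adjusted p = 0.0211). Each of these calls was lost in at least 1 fit without 1 array, control XX array 2 among them, with adjusted p up to 0.114 for Gatm, 0.0707 for Akr1b8 and 0.0935 for Me1. Cyp26b1, which degrades retinoic acid and in the fetal testis keeps it from germ cells, was at 8.12, 8.37, 8.02 and 8.37 in dKO XY, against 7.07, 6.73, 7.21 and 6.72 in control XX and 8.52, 8.56, 8.92 and 8.60 in control XY. It was higher than in control XX by 1.29 ± 0.15 (SE; adjusted p = 0.00383), at least 2.40-fold with background in place of the 1 control XX value below it, and the dKO XY arrays all lay below the control XY arrays, by 0.43 on average (adjusted p = 0.0486).

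The mu-class glutathione S-transferases lie side by side on chromosome 3, where the RefSeq table gives the order Gstm5, Gstm7, Gstm6, Gstm3, Gstm2, Gstm1 and Gstm4. Of these 7 neighbours 4 were higher in dKO XY than in control XX, Gstm1 and Gstm6 among them. Gstm2 was higher by 2.42 (adjusted p = 0.00387) and Gstm7 by 2.08 (adjusted p = 0.0202). Without control XX array 2, among other arrays, the calls for Gstm7 and Gstm6 were lost, with adjusted p up to 0.100 and 0.146. Gstm3 had a difference of 1.29 (interval 0.66 to 1.91; adjusted p = 0.144), Gstm4 of 0.61 (interval 0.30 to 0.91; adjusted p = 0.170) and Gstm5 of −0.43 (interval −0.90 to 0.03; adjusted p = 0.507). These genes are near copies of each other, so probes of 1 gene may have measured RNA of another. Likewise Cstdc1, a cystatin-domain gene in the same array of genes on chromosome 2 as Cst9, was higher by 1.32 (adjusted p = 0.0261, and up to 0.120 without 1 array), while Cst10, Cst11 and Cst13 there had differences of 0.31, 0.36 and −0.10 with adjusted p from 0.537 to 0.823, and Cst12, next to Cstdc1, had the difference of −2.18 given above.

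Part of the pre-granulosa cell genes were lower in dKO XY than in control XX gonads. Of 18 autosomal pre-granulosa genes, 7 were lower in dKO XY than in control XX, against 0.163% of all autosomal symbols, and none was higher, with a median difference of −0.76. For 9 of the 18, against 91.6% of all symbols, the interval lay within 1 of 0. The unadjusted interval lay wholly below 0 for 13 of the 18 and above 0 for none. All 4 dKO XY arrays lay below all 4 control XX arrays for 13, against 2.61% of all symbols. The mean of the 18 genes was 7.14 to 7.33 in dKO XY arrays, 7.90 to 8.46 in control XX arrays and 7.03 to 7.17 in control XY arrays, so that dKO XY arrays lay clear of control XX and overlapped control XY. The count was 8 without control XX array 1, 2 without control XX array 2 and 1 without dKO XY arrays 1 and 3.

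Fst, which encodes the activin-binding protein follistatin, was at 6.31, 6.24, 6.56 and 6.46 in dKO XY, against 10.02, 11.71, 10.40 and 11.80 in control XX and 6.48, 6.05, 5.86 and 5.68 in control XY. It was lower in dKO XY than in control XX by 4.59 ± 0.35 (SE) on the fitted scale (adjusted p = 0.000152). Fst was below background in all 4 dKO XY arrays, and with background in its place it was at least 18.6-fold lower, while the difference from control XY was 0.37 (interval −0.38 to 1.13). The dKO XY arrays overlapped the control XY range and stood below every control XX array. Wnt4, the WNT ligand of the early ovary, was at 7.63, 8.12, 7.75 and 8.0 in dKO XY, against 8.65, 9.11, 8.76 and 9.12 in control XX and 7.97, 7.79, 8.0 and 8.02 in control XY. Its difference was −1.04 from control XX (adjusted p = 0.0120) and −0.07 (interval −0.38 to 0.25) from control XY. Without control XX array 2 the adjusted p for Wnt4 was 0.0614, and without dKO XY arrays 1 and 3 it was 0.158. Of the other members, Cdkn1b, the cell cycle inhibitor p27, was lower by 2.32 (adjusted p = 0.0221), Adamts19, a secreted metalloprotease, by 1.89 (adjusted p = 0.00387), and Gng13, a G protein γ subunit, by 1.83 (adjusted p = 0.0159). The remaining calls were Msx1, a homeobox gene, at −0.99 (adjusted p = 0.0265) and Sp5, a transcription factor induced by WNT signals, at −0.90 (adjusted p = 0.0211), with Sp5 below background in all 4 dKO XY arrays. Of these 7, Fst and Adamts19 passed in all 12 fits without 1 array. The others lost their call without control XX array 2, and all of those but Wnt4 also without dKO XY array 4, with adjusted p up to 0.131 for Cdkn1b, 0.0672 for Gng13, 0.129 for Msx1 and 0.0851 for Sp5. Of the 12 fits, Cdkn1b and Gng13 each passed in 8, Sp5 in 7 and Msx1 in 4.

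The defining transcription factor Foxl2 was at 4.81, 4.83, 5.36 and 4.80 in dKO XY, against 4.96, 5.20, 5.24 and 4.80 in control XX and 4.77, 4.53, 4.65 and 4.53 in control XY. The dKO XY and control XX ranges overlapped, and the control XY arrays lay just below both. All 12 values were below background, so they give no comparison of Foxl2 expression. The dKO XY minus control XX difference was −0.10 (interval −0.43 to 0.23), and the control XX minus control XY difference, 0.43, did not pass either (adjusted p = 0.156). Rspo1, an enhancer of WNT signalling, averaged 8.13 ± 0.11 in dKO XY, 8.75 ± 0.32 in control XX and 8.04 ± 0.15 in control XY arrays (SD, n = 4), with a difference from control XX of −0.62 (interval −0.95 to −0.30; adjusted p = 0.195). Runx1, a transcription factor of pre-granulosa cells, averaged 6.74 ± 0.07 in dKO XY, 7.07 ± 0.38 in control XX and 6.10 ± 0.18 in control XY arrays (SD, n = 4). It differed from control XX by −0.34 (interval −0.70 to 0.03; adjusted p = 0.511) and was higher in dKO XY than in control XY by 0.63 (adjusted p = 0.0272). Irx3 and Bmp2, a homeobox gene and a TGF-β family ligand of the fetal ovary, had differences from control XX of −0.47 (interval −0.78 to −0.16) and −0.37 (interval −0.75 to 0.01). All 12 values of Bmp2 were at or below background and give no comparison of its expression. So were 9 values of Irx3, all 4 in dKO XY among them, and 7 of Runx1, 3 of them in dKO XY, which limits their comparisons.

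**Figure D3:**
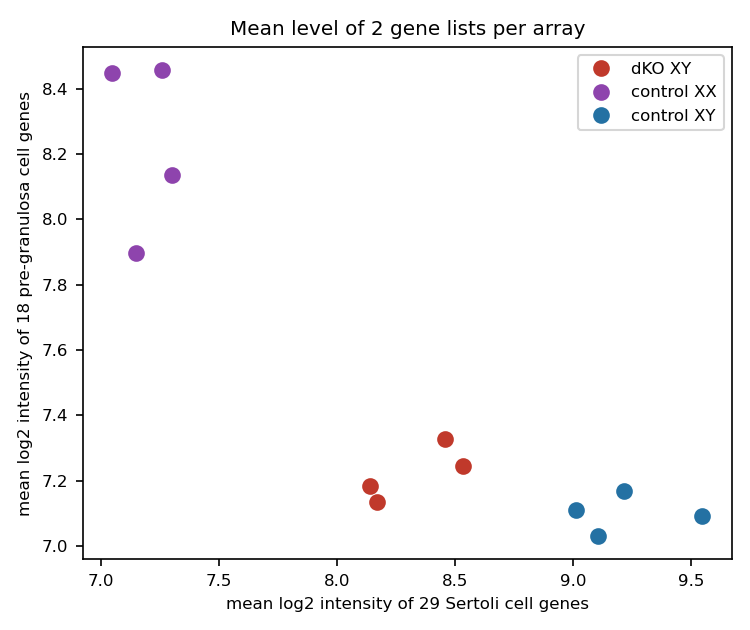
Mean level of 29 Sertoli cell genes (horizontal axis, log2 intensity) against that of 18 pre-granulosa genes (vertical axis, log2 intensity), with 1 point for each of the 12 arrays. The dKO XY arrays lie at 8.14 to 8.54 and 7.14 to 7.33, between the control groups on the horizontal axis and in the range of control XY or just above it on the vertical axis.

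Among the other genes lower in dKO XY than in control XX gonads, Phlda2, an imprinted gene that restrains growth of the placenta, was at 7.25, 7.84, 7.36 and 7.35 in dKO XY, against 9.35, 11.16, 11.44 and 11.24 in control XX and 6.23, 6.34, 6.06 and 5.91 in control XY. It was lower than in control XX by 3.35 ± 0.36 (SE), 10.2-fold (adjusted p = 0.00284), and higher than in control XY by 1.32 (adjusted p = 0.0290), with no overlap between any groups. All 4 control XY values of Phlda2 were below background, which limits its comparison with control XY. Sulf1, a sulfatase that edits heparan sulfate outside the cell, was at 10.19, 11.12, 9.73 and 10.26 in dKO XY, against 12.14, 12.83, 12.84 and 13.41 in control XX and 10.39, 10.63, 9.83 and 10.47 in control XY. It was lower by 2.47, 5.56-fold (adjusted p = 0.00586), with an adjusted p of 0.0748 without dKO XY arrays 1 and 3. Lrrn1, a membrane protein with leucine-rich repeats, was at 6.79, 6.71, 6.73 and 6.92 in dKO XY, against 8.72, 9.66, 9.27 and 8.91 in control XX and 6.94, 7.07, 6.93 and 6.61 in control XY. It was lower by 2.35 (adjusted p = 0.000158), at least 4.94-fold with background in place of the 2 dKO XY values below it, and the dKO XY arrays lay within the control XY range.

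Igf1, insulin-like growth factor 1, was the 1 member of the interstitial list that passed. It was at 7.83, 7.95, 7.79 and 7.90 in dKO XY, against 8.88, 8.77, 8.88 and 9.08 in control XX and 8.0, 7.87, 7.89 and 7.61 in control XY, lower in dKO XY than in control XX by 1.04 (adjusted p = 0.00299) and 0.02 from control XY (interval −0.22 to 0.27). The range of the dKO XY arrays lay inside that of control XY. Over all 45 annotated genes called lower, sizes ran from 0.71 to 4.59 with a median of 1.20, and 32 were at least 2-fold lower. The 40 genes called higher had sizes of 0.61 to 8.73 with a median of 1.27, and 29 were at least 2-fold higher.

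Promoter sequence was read from RefSeq for the genes that carry these differences, to show what kind of start region lies in front of them. The 3 largest higher and the 3 largest lower genes with a single promoter record are shown with Fgf9 and Wnt4, each as the 250 bases before the RefSeq start site (build GRCm38.p6), 5′ to 3′ on the strand of the gene, with matches to searched motifs in capitals. Cst9 is at chr2:148834897-148835146 (plus strand), Gatm at chr2:122611278-122611527 (minus strand), Gstm2 at chr3:107986421-107986670 (minus strand), Phlda2 at chr7:143502525-143502774 (minus strand), Lrrn1 at chr6:107529476-107529725 (plus strand), Cdkn1b at chr6:134920151-134920400 (plus strand), Fgf9 at chr14:58072436-58072685 (plus strand) and Wnt4 at chr4:137277385-137277634 (plus strand).
Cst9: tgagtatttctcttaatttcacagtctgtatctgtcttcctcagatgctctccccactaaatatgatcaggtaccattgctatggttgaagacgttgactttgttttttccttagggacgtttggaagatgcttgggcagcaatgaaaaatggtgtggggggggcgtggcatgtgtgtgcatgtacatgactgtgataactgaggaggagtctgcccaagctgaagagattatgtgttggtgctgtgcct
Gatm: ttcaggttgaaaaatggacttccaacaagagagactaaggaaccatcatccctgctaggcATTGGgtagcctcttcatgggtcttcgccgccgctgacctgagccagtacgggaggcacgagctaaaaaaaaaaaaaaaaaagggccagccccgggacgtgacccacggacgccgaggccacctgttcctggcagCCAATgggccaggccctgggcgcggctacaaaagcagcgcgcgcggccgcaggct
Gstm2: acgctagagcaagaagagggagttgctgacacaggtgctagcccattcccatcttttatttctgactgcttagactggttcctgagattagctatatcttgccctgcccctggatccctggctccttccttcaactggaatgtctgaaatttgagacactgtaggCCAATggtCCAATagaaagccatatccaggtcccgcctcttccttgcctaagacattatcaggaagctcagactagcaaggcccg
Phlda2: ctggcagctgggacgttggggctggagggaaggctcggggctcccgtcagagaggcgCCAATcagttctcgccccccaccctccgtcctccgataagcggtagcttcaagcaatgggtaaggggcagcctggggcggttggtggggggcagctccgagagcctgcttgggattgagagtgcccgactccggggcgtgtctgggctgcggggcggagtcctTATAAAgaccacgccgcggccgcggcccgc
Lrrn1: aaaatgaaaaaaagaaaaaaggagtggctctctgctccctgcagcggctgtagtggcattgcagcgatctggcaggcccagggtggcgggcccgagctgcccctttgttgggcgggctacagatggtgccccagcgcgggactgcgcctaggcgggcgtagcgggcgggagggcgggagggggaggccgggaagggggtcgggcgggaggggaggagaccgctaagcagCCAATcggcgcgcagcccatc
Cdkn1b: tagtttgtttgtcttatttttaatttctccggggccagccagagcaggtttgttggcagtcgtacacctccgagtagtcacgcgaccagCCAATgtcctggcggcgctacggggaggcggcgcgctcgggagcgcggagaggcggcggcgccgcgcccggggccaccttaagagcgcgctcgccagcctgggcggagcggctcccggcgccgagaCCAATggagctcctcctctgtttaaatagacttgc
Fgf9: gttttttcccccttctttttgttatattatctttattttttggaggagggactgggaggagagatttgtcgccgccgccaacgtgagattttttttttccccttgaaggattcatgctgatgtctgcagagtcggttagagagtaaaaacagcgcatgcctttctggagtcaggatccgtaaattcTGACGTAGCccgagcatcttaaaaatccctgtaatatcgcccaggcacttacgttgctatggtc
Wnt4: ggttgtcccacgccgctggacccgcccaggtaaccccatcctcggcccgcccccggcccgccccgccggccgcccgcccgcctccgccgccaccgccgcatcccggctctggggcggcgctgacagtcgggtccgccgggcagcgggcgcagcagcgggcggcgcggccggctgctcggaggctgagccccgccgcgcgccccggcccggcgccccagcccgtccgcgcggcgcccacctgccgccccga
The first 3 belong to genes higher in dKO XY than in control XX gonads and the next 3 to genes that were lower.

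The motifs searched, on both strands, were AACAAT (SOX family), CTTTGA (TCF/LEF family), AAGGTCA (a site of NR5A1), TGACNNNGC (the antioxidant response element), CCAAT (the CCAAT box) and TATAAA (the TATA box). None of the 6 was found in the windows of Cst9 and Wnt4. A TGACNNNGC match stood in that of Fgf9, a TATAAA and a CCAAT match in that of Phlda2, and 1 or 2 CCAAT matches in those of Gatm, Gstm2, Lrrn1 and Cdkn1b. The windows differ widely in CpG dinucleotides, from 3 in Cst9 and Gstm2 to 44 in Wnt4. Promoter records were found for 33 of the 40 genes called higher (49 promoters) and 35 of the 45 called lower (48 promoters). The AACAAT motif was in 10.2% of the promoters of higher genes, 6.25% of those of lower genes and 9.26% of all 31396 autosomal promoters, and CTTTGA in 12.2%, 16.7% and 13.8%. TGACNNNGC was in 18.4%, 6.25% and 10.3%, CCAAT in 44.9%, 54.2% and 33.7%, TATAAA in 16.3%, 2.08% and 12.4%, and AAGGTCA in 4.08%, 4.17% and 4.07%. These shares describe letters in a window and no test was made of them.

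Other genes that were below control XY in dKO XY gonads lay within 1 of control XX. By rule, the 10 annotated genes with the largest dKO XY minus control XY difference among those at the control XX level are named here, so their values are a description. Igfbp3, which binds insulin-like growth factors, was at 8.25, 9.43, 8.07 and 9.08 in dKO XY, against 9.02, 8.95, 8.23 and 9.04 in control XX and 10.75, 10.78, 11.71 and 10.90 in control XY. The differences were −0.10 from control XX (interval −0.79 to 0.59) and −2.33 from control XY. Zar1, known for its role in the egg after fertilisation, was at 6.75, 7.06, 6.96 and 7.32 in dKO XY, against 6.36, 6.75, 6.49 and 6.31 in control XX and 9.19, 9.46, 9.43 and 8.71 in control XY, with differences of 0.55 (interval 0.15 to 0.94) and −2.17. The ranges of dKO XY and control XX overlapped for both genes, and control XY stood above them. The remaining 8 were Ccl17 (a chemokine and member of the Sertoli list), Itga9 (an integrin subunit), Fabp5 (a fatty acid binding protein), Cbln1 (a cerebellin), Nt5dc2, Kazald1, Nid1 (nidogen of the basement membrane) and Sulf2 (a sulfatase like Sulf1). Their dKO XY minus control XX differences ran from −0.30 for Sulf2 to 0.40 for Itga9, and their dKO XY minus control XY differences from −2.24 for Ccl17 to −1.64 for Sulf2. At or below background were 9 of the 12 values of Kazald1, all 4 in dKO XY among them, 6 of Ccl17 and 4 of Zar1. This limits what the differences from control XX show for Kazald1, Ccl17 and Zar1. Without dKO XY arrays 1 and 3, the arrays of lowest signal contrast, the interval from control XX stayed within 1 for 2 of the 10, and the difference from control XY passed the test for 1, Zar1, at −2.01 (adjusted p = 0.0431). With signal contrast as a covariate none of the 10 passed against control XY and 7 stayed within 1 of control XX.

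**Figure D4:**
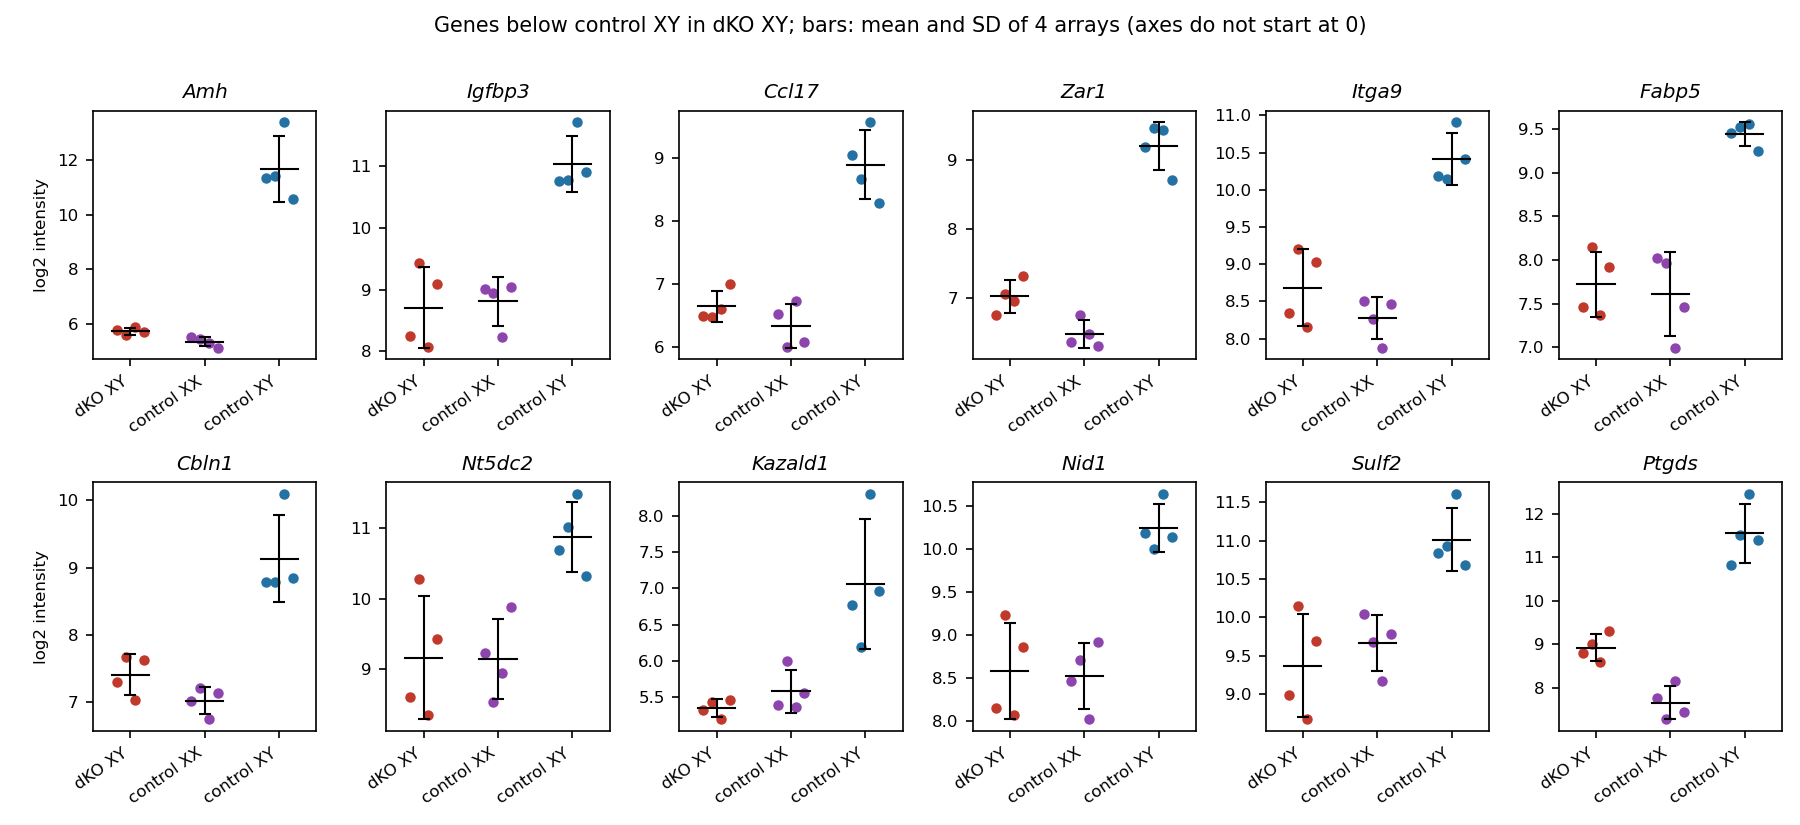
Level of 12 genes (log2 intensity) in each array of dKO XY, control XX and control XY gonads, with the mean and SD of 4 arrays. Amh and the 10 genes chosen as being at the control XX level lie near the control XX arrays in dKO XY and below the control XY arrays on average, while Ptgds lies between both.

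Leydig cell genes gave no call against control XX. Of 12 genes of fetal Leydig cells and steroid synthesis, 8 were at the control XX level by their interval, against 91.6% of all symbols, and the median difference was 0.01. Cyp17a1, the enzyme that makes androgens from pregnanes, was at 6.56, 6.25, 6.67 and 7.10 in dKO XY, against 6.44, 6.44, 6.71 and 6.13 in control XX and 8.08, 7.71, 11.31 and 9.03 in control XY, with a difference of 0.21 from control XX (interval −1.05 to 1.48) and −2.39 from control XY (adjusted p = 0.0237). Its dKO XY and control XX arrays overlapped and control XY stood above both. Most of its dKO XY and control XX values were below background, which limits the comparison between these groups. Hsd3b1, an enzyme of the same pathway, averaged 7.66 ± 0.22 in dKO XY, 8.10 ± 0.81 in control XX and 9.61 ± 0.80 in control XY arrays (SD, n = 4), with −0.44 (interval −1.33 to 0.44) against control XX and −1.95 (adjusted p = 0.0212) against control XY. In control XX array 1, which carried the neuroendocrine markers, Hsd3b1 was at 9.25, against 7.38 to 8.02 in the other 3 control XX arrays. Star and Cyp11a1, which start steroid synthesis, differed from control XX by 0.0 (interval −0.55 to 0.55) and 0.13 (interval −0.73 to 0.98).

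None of 10 hedgehog pathway genes passed against control XX. Ptch1, the receptor and a direct target of hedgehog signals, averaged 9.69 ± 0.62 in dKO XY, 8.24 ± 0.59 in control XX and 11.25 ± 0.27 in control XY arrays (SD, n = 4), 1.45 from control XX (interval 0.75 to 2.14; adjusted p = 0.135) and −1.56 from control XY (adjusted p = 0.0212). Hhip, another target, differed from control XX by 0.48 (interval −0.14 to 1.11) and from control XY by −2.14 (adjusted p = 0.00862), and Gli1, a transcription factor and target, by 0.62 (interval 0.30 to 0.94) and −0.32 (adjusted p = 0.109). Of 19 interstitial cell genes, Igf1 was the only one called, against 0.163% of all symbols called lower. Of the 19, 12 were at the control XX level, and the median difference was −0.34. Tcf21, a transcription factor of interstitial progenitors, averaged 10.54 ± 0.75 in dKO XY, 10.04 ± 0.82 in control XX and 13.12 ± 0.47 in control XY arrays (SD, n = 4), with 0.51 from control XX (interval −0.42 to 1.43) and −2.58 from control XY (adjusted p = 0.0164). Acta2, smooth muscle actin, had differences of −0.34 (interval −1.30 to 0.62) and −2.27 (adjusted p = 0.0202), and Wnt5a, a WNT ligand of the stroma, −0.20 (interval −0.66 to 0.27) and −1.64 (adjusted p = 0.00862).

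For 20 genes of cords and basement membrane no member passed, 15 were at the control XX level, and the median was −0.02. Col4a1, a collagen of the basement membrane, averaged 7.54 ± 0.32 in dKO XY, 7.15 ± 0.25 in control XX and 8.61 ± 0.42 in control XY arrays (SD, n = 4), with 0.39 from control XX (interval −0.09 to 0.86) and −1.07 from control XY (adjusted p = 0.0212). Lama4, a laminin chain, had 0.75 (interval 0.27 to 1.23; adjusted p = 0.310), and Frem2, an extracellular matrix protein, −0.92 (interval −1.29 to −0.56; adjusted p = 0.0552). None of 12 transcription factors that form the gonad in both sexes passed. Nr5a1, which drives steroidogenic genes, differed from control XX by 0.67 (interval 0.12 to 1.21; adjusted p = 0.421), with 0.93 and an adjusted p of 0.0143 when signal contrast was a covariate. Gata4 had 0.53 (interval 0.0 to 1.07) and Wt1 −0.17 (interval −0.82 to 0.47), both transcription factors of the somatic gonad.

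Germ cell genes were examined because germ cells of the ovary prepare for meiosis at this stage. None of 20 germ cell genes passed, 13 were at the control XX level, against 91.6% of all symbols, and every difference was below 0, with a median of −0.27 and a range of −1.78 to −0.04. Dazl, an RNA-binding protein that licenses germ cells for gametogenesis, was at 10.02, 10.05, 8.35 and 9.70 in dKO XY, against 10.79, 11.12, 12.06 and 11.29 in control XX and 9.25, 9.73, 11.90 and 11.44 in control XY, with a difference from control XX of −1.78 (interval −3.0 to −0.57; adjusted p = 0.345) and from control XY of −1.05 (adjusted p = 0.156). All dKO XY arrays lay below all control XX arrays. None of 8 male germ cell genes passed, and 6 of the 8 were below the array median on all 12 arrays. Of 19 genes of meiotic entry, 2 were lower in dKO XY than in control XX, against 0.163% of all symbols. All 4 dKO XY arrays lay below all 4 control XX arrays for 10 of the 19, against 2.61% of all symbols, and above them for none. Rec8, a meiotic cohesin subunit, was at 6.86, 6.85, 6.91 and 6.92 in dKO XY, against 7.55, 7.78, 7.45 and 7.74 in control XX and 6.70, 6.53, 6.5 and 6.53 in control XY, lower by 0.74 (adjusted p = 0.0122). Sycp3, a protein of the synaptonemal complex, was at 9.32, 9.70, 9.04 and 9.34 in dKO XY, against 10.34, 11.39, 10.79 and 10.73 in control XX and 9.34, 9.67, 10.23 and 10.33 in control XY, lower by 1.46 (adjusted p = 0.0400). The dKO XY arrays did not overlap control XX for either gene. Both calls were lost in several fits without 1 array, control XX array 2 among them, with adjusted p up to 0.0567 for Rec8 and 0.158 for Sycp3. Stra8, which retinoic acid induces at the start of meiosis, differed from control XX by −0.22 (interval −0.59 to 0.16), and Smc1b and Hormad1, both of the meiotic chromosome axis, by −2.04 (interval −3.06 to −1.02; adjusted p = 0.160) and −1.67 (interval −2.5 to −0.84; adjusted p = 0.155). All 12 values of Stra8 were at or below background and give no comparison of its expression.

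Among signalling pathways, none of 27 genes for ligands, receptors and SMADs of the AMH, activin and TGF-β pathway passed, and 23 were at the control XX level, against 91.6% of all symbols. Amhr2, the receptor for AMH, averaged 8.26 ± 0.20 in dKO XY, 8.30 ± 0.40 in control XX and 8.24 ± 0.27 in control XY arrays (SD, n = 4), with a difference of −0.04 (interval −0.48 to 0.39). Inha, the inhibin α subunit, differed from control XX by 0.08 (interval −0.30 to 0.47) and from control XY by −0.79 (adjusted p = 0.0223), and Inhba, the βA subunit, from control XX by 0.12 (interval −0.12 to 0.36). For the SMAD, WNT and FGF lists the count of lower genes stands against 0.163% of all symbols. Of 15 genes that SMADs induce, Id2 alone was called. Of 10 genes induced by WNT and β-catenin, 2 were lower, Sp5 and also Tnfrsf19, a receptor of the TNF family that was lower by 1.30 (adjusted p = 0.0127). Axin2, the feedback inhibitor of WNT signalling, averaged 6.91 ± 0.03 in dKO XY, 7.31 ± 0.13 in control XX and 6.83 ± 0.12 in control XY arrays (SD, n = 4), with −0.41 (interval −0.63 to −0.18; adjusted p = 0.236).

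Of 10 genes of the FGF pathway, Fgfr2, the receptor for FGF9, was lower in dKO XY than in control XX by 1.23 (adjusted p = 0.0120) and differed from control XY by −0.05 (interval −0.43 to 0.32). The feedback genes Etv5 and Dusp6 had differences from control XX of 1.20 (interval 0.64 to 1.76; adjusted p = 0.125) and 1.02 (interval 0.38 to 1.66; adjusted p = 0.298), and Spry4 of 0.97 (interval 0.58 to 1.36; adjusted p = 0.0564). The calls for Tnfrsf19 and Fgfr2 were each lost without control XX array 2 or dKO XY array 4, with adjusted p up to 0.0643 and 0.0672. That for Tnfrsf19 was also lost without control XX array 4, and that for Fgfr2 without dKO XY array 1. Of 15 genes of retinoic acid metabolism and response, Cyp26b1 was the only one called.

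Markers of other cells that the samples could hold gave no call. None of 17 endothelial, 15 macrophage, 6 erythroid, 10 mesonephric, 13 coelomic epithelial or 7 neural crest genes passed. Endothelial genes averaged 7.10 to 7.49 in dKO XY and 7.08 to 7.33 in control XX arrays, macrophage genes 6.75 to 6.89 in dKO XY and 6.74 to 7.01 in control XX, and mesonephric genes 6.31 to 6.56 in dKO XY and 6.28 to 6.47 in control XX. The intervals of all 17 endothelial and all 10 mesonephric genes lay within 1 of 0. The mesonephric means were below background on each of these arrays, so those intervals say little about mesonephric tissue. Krt18, a keratin of the surface epithelium, had the largest coelomic difference, −1.5 (interval −2.14 to −0.87; adjusted p = 0.0737). None of 21 cell cycle genes, 14 immediate early genes or 9 housekeeping genes passed, and their medians were −0.01, 0.06 and −0.01. Against control XY the medians were −0.89, −0.02 and −0.38 in the same order.

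**Figure D5:**
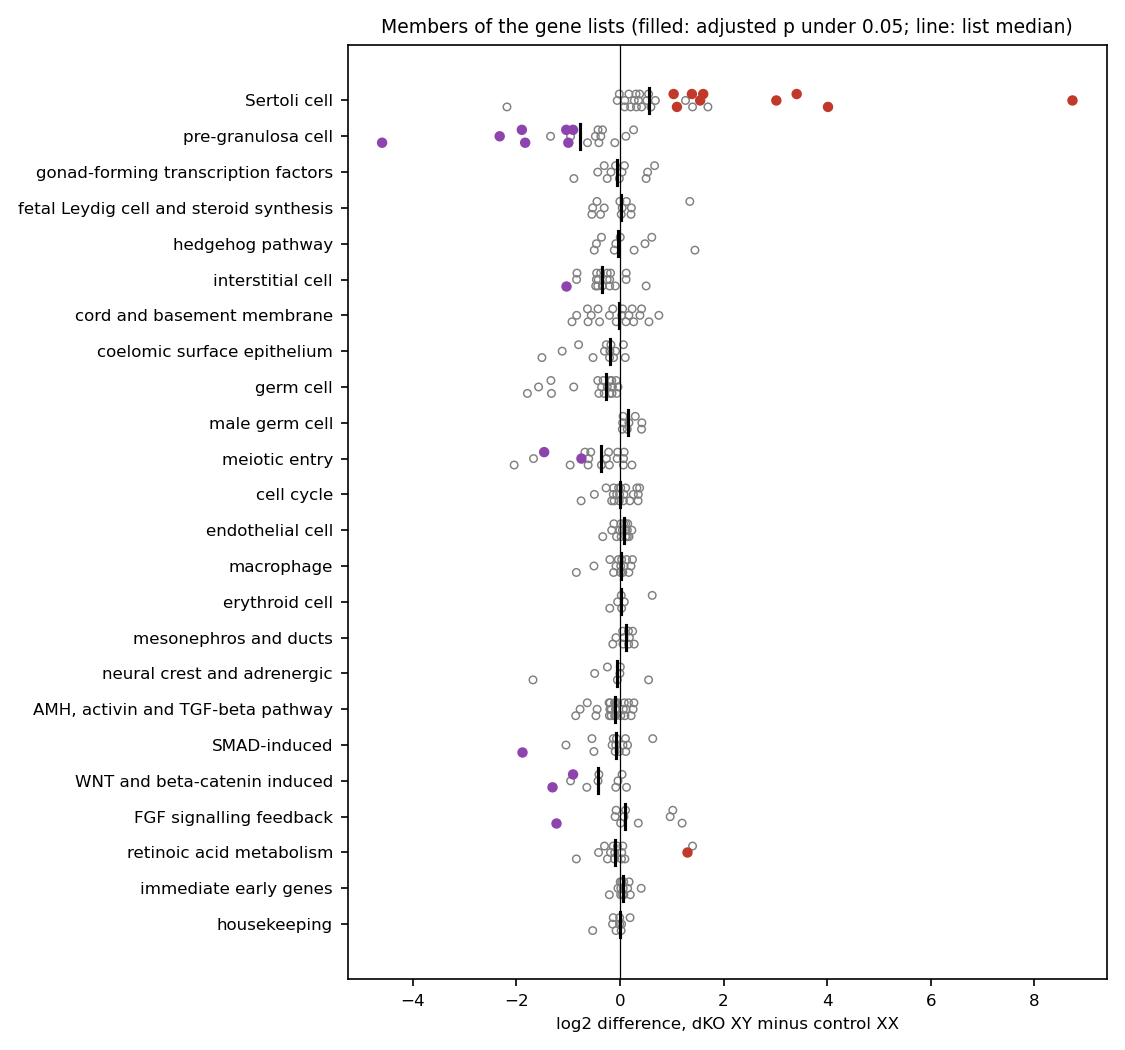
Difference between dKO XY and control XX gonads (log2, horizontal axis) for the members of each of 24 gene lists, with filled points for members of adjusted p under 0.05 and a line at the median of the list. Filled points stand above 0 in the Sertoli list and the retinoic acid list and below 0 in the pre-granulosa, interstitial, meiotic, SMAD, WNT and FGF lists.

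A few genes lay outside the levels of both control groups in dKO XY gonads. By rule these pass in both dKO XY comparisons with the same sign, which 4 annotated genes did above and 7 below both control groups. With signal contrast as a covariate all 11 passed against control XX and none against control XY, and without dKO XY arrays 1 and 3 together 2 of the 4 and none of the 7 passed against control XX and none against control XY. Cpa1, carboxypeptidase A1, was at 9.75, 10.25, 9.32 and 10.39 in dKO XY, against 7.58, 7.41, 7.64 and 8.53 in control XX and 8.33, 8.80, 8.94 and 8.64 in control XY. It was higher than control XX by 2.14 (adjusted p = 0.00665) and than control XY by 1.25 (adjusted p = 0.0218), and all dKO XY arrays stood above all 8 control arrays. Rnase1, a secreted ribonuclease, was at 8.37, 8.64, 8.73 and 8.30 in dKO XY, against 6.89, 7.06, 7.10 and 6.89 in control XX and 7.45, 7.69, 7.0 and 7.26 in control XY, higher than control XX by 1.52 (adjusted p = 0.00165) and than control XY by 1.16 (adjusted p = 0.00862), again with no overlap. The others above were Dusp15, a phosphatase, at 0.85 and 0.44, and Olfr135, an olfactory receptor, at 0.61 and 0.65. All 12 values of Olfr135 and the 4 control XX values of Dusp15 were below background. The call of Cpa1 against control XX was lost without control XX array 2 (adjusted p = 0.0553). The call of Olfr135 against control XX was lost in each of the 12 fits without 1 array, and that of Dusp15 in 6 of them.

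Below both, Id2, an inhibitor of helix-loop-helix factors that BMP signals induce, was at 10.49, 11.51, 9.36 and 10.72 in dKO XY, against 12.28, 12.77, 12.15 and 12.41 in control XX and 12.88, 12.38, 12.70 and 12.81 in control XY. It was lower than control XX by 1.88 (adjusted p = 0.0484) and than control XY by 2.17 (adjusted p = 0.0146), and passed against control XX in 2 of the 12 fits without 1 array. Alcam, a cell adhesion molecule, was at 9.41, 10.30, 8.82 and 9.82 in dKO XY, against 11.52, 11.71, 11.14 and 11.19 in control XX and 11.22, 11.20, 11.74 and 11.52 in control XY, lower than control XX by 1.80 (adjusted p = 0.0159) and than control XY by 1.83 (adjusted p = 0.0118). For both genes all dKO XY arrays lay below all control arrays, and array 3, which had the lowest signal contrast, was the lowest. Dnajc15, a mitochondrial co-chaperone, had −2.16 and −1.40, Apoc1, an apolipoprotein, −1.82 and −1.07, Tcf12, a helix-loop-helix factor, −1.20 and −0.77, and Tctex1d2, a dynein light chain gene, −0.93 and −0.46. Without dKO XY arrays 1 and 3 together none of these 6 passed against control XX, with adjusted p from 0.0798 for Alcam to 0.429 for Tcf12 and differences of −1.33 for Alcam, −1.29 for Id2, −1.46 for Dnajc15 and −1.53 for Apoc1. With signal contrast as a covariate all 6 passed against control XX, with adjusted p from 0.00376 for Alcam to 0.0215 for Id2, and none passed against control XY.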

How the data were processed

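For 72688 probe sets on 12 Affymetrix Clariom D arrays, 4 per group, log2 intensities were deposited. Per the study's methods the authors summarised the arrays by RMA and compared groups with a one-way model, and the background correction behind the deposited log2 values is not given in the sources used here. The values were used as deposited, with no further scaling, pseudocount or filter. A further array-level measure was taken from 1324 positive and 5222 negative control probe sets. All 65956 transcript clusters were fitted in R 4.3.3 by the functions lmFit and eBayes of limma 3.58.1, with a mean for each of the 3 groups, with Benjamini-Hochberg adjustment over all of them and a threshold of adjusted p under 0.05, and counts were made over the 61635 autosomal clusters. The script was tested on simulated data. Plots used matplotlib 3.10.9 in Python 3.11.15.

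Named genes are a core set, the 10 largest differences in each direction, up to 4 called members of each list, the 10 largest dKO XY minus control XY differences at the control XX level, and up to 6 genes each above and below both control groups. Predicted genes, clones and small RNAs were left out. Where a group lay at or below the average of the negative controls on an array, taken as background after the data were seen, that average replaced its value to give a fold as a lower bound. List members named beyond this rule were chosen after their values were seen. The groups compared, the lists and the members were chosen with earlier results of these data known. The lists hold textbook markers and are not independent evidence. Alternatives were quantile normalisation, a filter on dim clusters (above the percentile 95 of the negative controls on at least 4 arrays), other models and leaving out arrays.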

Additional observations from a re-analysis of the deposited data

Results flagged for a closer look

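Among 180 groups of 4 arrays examined for the named genes, 10 held an array whose gap to the nearest of the others exceeded Dixon's critical share of the range of the group, a size at which chance marks about 1 in 20 groups. In dKO XY, array 3 was high for Foxl2, at 5.36 against 4.80 to 4.83 (a gap of 0.938 of the range), and array 4 was low for Tnfrsf19, at 7.34 against 7.49 to 7.5 (0.895). In control XX, array 1 was low for Phlda2, at 9.35 against 11.16 to 11.44 (0.866), array 2 was high for Sp5, at 7.42 against 6.99 to 7.03 (0.905), array 3 was low for Igfbp3, at 8.23 against 8.95 to 9.04 (0.882), and array 4 was high for Runx1, at 7.63 against 6.85 to 6.95 (0.871). In control XY, array 1 was high for Stra8, at 5.71 against 5.52 to 5.54 (0.891). Array 3 of control XY was high for 3 genes, Defb19 at 17.2 against 16.6 to 16.7 (0.950), Igfbp3 at 11.7 against 10.8 to 10.9 (0.842) and Cbln1 at 10.1 against 8.79 to 8.84 (0.958).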

How the results depend on the processing

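Leaving out 1 array at a time gave 13 to 60 higher and 15 to 122 lower clusters in dKO XY than in control XX, 26 to 136 that differed 2-fold, 52570 to 56582 at the control XX level, 5 to 10 Sertoli and 2 to 8 pre-granulosa calls, 73 to 26194 calls for dKO XY minus control XY and 528 to 1701 for control XX minus control XY. The lowest counts of calls against control XX came without control XX array 2, where the Sertoli count equalled that without dKO XY array 4, and the highest cluster counts of calls came without dKO XY array 2. The count at the control XX level was lowest without dKO XY array 2 and highest without dKO XY array 3. The dKO XY minus control XY count was 73 without dKO XY array 1, 186 without dKO XY array 3, 105 without control XY array 3, 2972 without control XY array 2, 3261 without control XY array 4 and 7434 without dKO XY array 4. Quantile normalisation gave 104 higher clusters, and 1704 calls for dKO XY minus control XY. The filter on dim clusters, which left 5144 autosomal clusters, gave 19 higher, 22 lower, 40 that differed 2-fold, 2666 at the control XX level, 4 Sertoli and 1 pre-granulosa call, 1270 for dKO XY minus control XY and 121 for control XX minus control XY, and some members no longer stood among the clusters tested. With only the 8 arrays of a comparison the counts were 19 higher, 16 lower, 32 that differed 2-fold, 5 Sertoli and 2 pre-granulosa calls and 10121 for dKO XY minus control XY. Array weights gave 89 higher clusters, 25109 calls for dKO XY minus control XY and 6099 for control XX minus control XY. With signal contrast as a covariate 129 clusters were higher and 82 lower, 368 differed between control XX and control XY, and limma called 0 for dKO XY minus control XY, where 2708 had an unadjusted p under 0.05. Without dKO XY arrays 1 and 3 together, 49 clusters were higher and 9 lower (39 and 8 of them among those called with all arrays), 53 differed 2-fold, 1 pre-granulosa gene was called and 4 clusters differed between dKO XY and control XY. The causes of these differences were not tested.

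Whether samples of the same replicate number were paired is not known. For dKO XY arrays 1 and 3, but not for arrays 2 and 4, the control XX array with the most similar deviations had the same number. Deviations of same-numbered dKO XY and control XX arrays from their group means correlated at −0.01 to 0.37, and with the replicate number as a block 36 clusters were higher and 50 lower, 8 Sertoli and 6 pre-granulosa genes were called, and Rec8, Sycp3, Id2, Olfr135, Dusp15 and Tctex1d2 lost their calls. None of the 35 named genes called between dKO XY and control XX changed direction in any fit, while 6 of the 25 not called (Wt1, Igfbp3, Fabp5, Nt5dc2, Nid1 and Sulf2) crossed 0, and the dKO XY minus control XY calls were mostly higher or mostly lower depending on the fit. The 35 had passed the test on these same arrays, so their constant direction was largely set by that choice and does not show stability. By the mean of the negative controls, 27 of the 35 were above background in every array of their lower group, while by their percentile 95 (9.94 to 10.9) 13 were below it on all 12 arrays. With 4 arrays per group, and a signal contrast that varied most within dKO XY, small differences were not detectable, and a missed threshold does not show equal levels.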

Other observations

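Other genes called between dKO XY and control XX gonads fall outside the lists, and the ones given here were chosen after their values were seen. Higher in dKO XY were Ptk2b, a cytoplasmic tyrosine kinase, by 1.17 (adjusted p = 0.00836), Gas7, a cytoskeletal adaptor, by 1.16 (adjusted p = 0.0101), Ddah1, which degrades a natural inhibitor of nitric oxide synthase, by 1.32 (adjusted p = 0.0120), Phgdh, the first enzyme of serine synthesis, by 0.83 (adjusted p = 0.0409), and Sox6, a transcription factor, by 0.69 (adjusted p = 0.0423). Mapk13, a p38 kinase, was higher than control XX by 0.99 (adjusted p = 0.0451) and lower than control XY by 1.17 (adjusted p = 0.0135). The calls of Phgdh and Sox6 against control XX passed in 1 of the 12 fits without 1 array, with adjusted p up to 0.174 and 0.158, and that of Mapk13 in 2, with up to 0.171. Ptk2b and Gas7 lost theirs without control XX array 2 (adjusted p = 0.0567 for each), and Ddah1 without that array or dKO XY array 4 (up to 0.0614).

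Lower in dKO XY than in control XX were Col12a1, a collagen of fibril surfaces, by 1.74 (adjusted p = 0.00387), Fat4, a giant cadherin, by 1.63 (adjusted p = 0.0265), Msx2, a homeobox gene like Msx1, by 1.24 (adjusted p = 0.00552), and Igfbp2, which like Igfbp3 binds insulin-like growth factors, by 1.09 (adjusted p = 0.0267). Pbx3, a homeobox cofactor, was lower than control XX by 0.85 (adjusted p = 0.00691) and than control XY by 0.45 (adjusted p = 0.0240). Col12a1, Msx2 and Pbx3 passed against control XX in all 12 fits without 1 array, Fat4 in 7 (adjusted p up to 0.114) and Igfbp2 in 5 (up to 0.119). Of the clusters called, 10 of the 53 higher and 25 of the 73 lower carried no symbol and were not described.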
